A study of Mus musculus with 24 samples.

Results

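Regions that differed in 5-hydroxymethylcytosine (5hmC) between 2 mouse embryonic stem cell (ESC) lines were examined where they fall at the ends of genes. A differentially hydroxymethylated region (DhMR) was a window in a bin of 200 bp, and it counted as a gene end DhMR when its midpoint lay in a 3′ UTR, or in the termination zone that runs from 100 bp before to 1000 bp after the end of a curated RefSeq transcript. Promoters (1000 bp before to 100 bp after a start site) were left out, and so were coding exons outside the termination zone. This rule took 769 of the 20726 DhMRs in the deposited lists, 341 in a 3′ UTR and 428 in a termination zone, at the ends of 631 genes. Of the 769, 466 (60.6%) were higher in Wt25 and 303 were higher in AA10, beside 58.4% of all listed windows higher in Wt25.

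Both lines are mouse ESCs of a mixed C57BL/6J-129V background in which *Tet1*, *Tet2* and *Tet3* are all knocked out, grown with LIF and the 2i inhibitors. Wt25 carries wild-type human Tet3 from a lentivirus, and AA10 carries the phosphor mutant of human Tet3. In this mutant a pair of serines in the catalytic domain, which the kinase cdk5 phosphorylates, is changed to alanine. The paper found further phosphorylation sites on Tet3, which the mutant does not change. Each line is 1 clone selected with puromycin, so the Tet3 protein and the clone cannot be told apart. DNA fragments with 5hmC were captured with an antibody (5hmC-DIP) in 3 libraries of each line, and the lists pool these libraries. They hold positions and a gene for most of them, without reads, fold changes or *P*-values, so the depth and the error of a single DhMR are unknown and the spread between libraries could not be computed. Intervals given with shares are 95% Wilson intervals and cover counting error only.

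Tet proteins oxidise 5-methylcytosine to 5hmC, mostly at CpG dinucleotides, and 5hmC is a step on the way to the unmethylated base as well as a mark found along the bodies of active genes. The 3′ UTR is the stretch of the last exons between the stop codon and the cleavage site, and it holds binding sites of microRNAs and RNA-binding proteins that set the stability and translation of the mRNA. The polyadenylation signal (AATAAA, or its common variant ATTAAA) directs cleavage of the transcript shortly downstream of it. RNA polymerase II goes on transcribing past that point before it is released, so the DNA just past the annotated end is transcribed but is absent from the mature mRNA.

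The sequences below show the stretches of 30 bases with the most CpGs in the CpG-densest DhMRs of each zone, with each CpG in capitals, because CpGs are the substrate of the mark. They are written 5′ to 3′ on the strand of the gene, from GRCm38.p6. The first 5 come from DhMRs higher in Wt25 and the other 4 from DhMRs higher in AA10.
*Sema6b*, 3′ UTR, chr17:56123957-56123986, minus strand: tCGaCGgtgccaaccacagCGaccCGggCG
*Slc9a3*, 3′ UTR, chr13:74167046-74167075, plus strand: gCGctcattccaaaggcctCGccCGCGcCG
*Zic4*, 3′ UTR, chr9:91387110-91387139, plus strand: CGCGttaggctCGccatggaaatgCGCGCG
*Eomes*, termination zone, chr9:118486638-118486667, plus strand: gttcCGggtcccttaagcacCGcagCGgCG
*Rln3*, termination zone, chr8:84042342-84042371, minus strand: gtCGgaaaggggccCGggactccctctgCG
*Pou3f4*, 3′ UTR, chrX:110815751-110815780, plus strand: caCGcaCGcaCGCGCGCGCGCGCGCGCGCG
*Dnajb2*, 3′ UTR, chr1:75244213-75244242, plus strand: agggcacagCGcaggcCGagCGagCGagCG
*Plekhg6*, termination zone, chr6:125361851-125361880, minus strand: CGtgtcctCGtggCGCGgCGtgCGgCGcCG
*Hoxa3*, termination zone, chr6:52168747-52168776, minus strand: ggCGgcCGgcctCGggctcagCGgggggCG

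A second set shows the polyadenylation signal, in capitals, of gene ends whose DhMR holds the signal just before the annotated transcript end. They are shown because the signal marks where the transcript is cut. The *Ccr10* and *Bnip5* windows stop short of the transcript end, and their printed stretches run past the window. The first pair was higher in Wt25 and the other 4 in AA10.
*Ccr10*, chr11:101172988-101173017, minus strand: taATTAAAaagttgagtctgatggtgtgtg
*Zfp580*, chr7:5053702-5053731, plus strand: ccAATAAAcattccgcacttcattcttggg
*Apol11b*, chr15:77633933-77633962, minus strand: taAATAAAaagtgtggatcagagtgtccta
*Bnip5*, chr17:28896384-28896413, minus strand: ccAATAAAgacactgactcaaagtgtgaac
*Ghrhr*, chr6:55388509-55388538, plus strand: ccAATAAActtgtacacgagtgatccacag
*Fkbp11*, chr15:98724362-98724391, minus strand: gaAATAAAtagtggtttttaacaagacgtt

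Gene ends were listed more often than the genome at large. Of the 253089 bins of 200 bp that fall in gene ends, 769 (0.304%, interval 0.283 to 0.326) were listed in either direction, beside 0.157% of all 13237133 genome bins without unknown bases. The 3′ UTR (0.307%) and the termination zone (0.301%) were listed at nearly the same rate. That rate lay above the rate of introns (0.193%) and of intergenic bins (0.120%), and below the rates of coding exons (0.374%) and promoters (0.385%). Gene ends make up 1.91% of the genome bins and 3.71% of the DhMRs. These rates were not tested against each other.

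The direction of the change at gene ends was close to that of all DhMRs. Of the 769, 60.6% (57.1 to 64) were higher in Wt25, beside 58.4% of all 20726 listed windows. By Fisher's exact test (two-sided, adjusted over 12 tests by the Benjamini-Hochberg method), gene ends differed from promoters, of which 52.9% of 605 were higher in Wt25 (odds ratio 1.37, interval 1.10 to 1.71, exact adjusted *P* = 0.0259). This call was lost without chromosome 6 (odds ratio 1.24, exact adjusted *P* = 0.198), with protein-coding transcripts only (1.29, exact adjusted *P* = 0.119) and with predicted transcripts included (1.20, exact adjusted *P* = 0.179). Against coding exons, with 65.9% of 627 higher in Wt25, the odds ratio was 0.797 (0.636 to 0.998, exact adjusted *P* = 0.135). It was 1.00 against introns (0.861 to 1.17, exact adjusted *P* = 1) and 1.10 against all other DhMRs (0.948 to 1.28, exact adjusted *P* = 0.410). Within gene ends, 62.2% of the 3′ UTR DhMRs and 59.3% of the termination DhMRs were higher in Wt25 (odds ratio 1.13, 0.832 to 1.52, exact adjusted *P* = 0.713). With the termination zone cut at 500 bp past the end, 63.0% of 594 gene end DhMRs and 65.2% of 244 termination DhMRs were higher in Wt25. Against all other DhMRs their odds ratios were 1.22 (1.03 to 1.45) and 1.34 (1.02 to 1.77), each with an exact adjusted *P* = 0.0744.

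Most gene ends held a single DhMR, which can have only 1 direction. DhMRs of both directions lay at 4 gene ends. Beside this, 1.51% of all curated genes had a gene end DhMR higher in Wt25 and 0.917% had one higher in AA10. Whether 4 departs from the number expected by chance was not tested. The 466 DhMRs higher in Wt25 lay at 395 gene ends, of which 340 had 1 DhMR, 46 had 2 and 9 had 3 or more. The 303 DhMRs higher in AA10 lay at 240 gene ends, of which 210 had 1, 16 had 2 and 14 had 3 or more. Touching DhMRs of 1 direction joined to 684 regions. Of the 631 genes, 559 were protein-coding, 56 were long non-coding RNA genes, 10 were microRNA genes and 6 were transcribed pseudogenes. They are 2.41% of the 26182 curated genes. At the ends of non-coding transcripts, 60 of 91 DhMRs were higher in Wt25.

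Within the 3′ UTR, DhMRs lay toward the stop codon. The 3′ UTRs with a DhMR had a median length of 2321 bases, and the midpoint of the DhMR lay a median of 748 bases past the stop codon. Genes with a 3′ UTR DhMR had a median longest 3′ UTR of 2319 bases, beside 719 bases for all curated coding genes, and a longer 3′ UTR holds more bins. When each 3′ UTR was cut into 3 equal stretches, 0.375% (0.320 to 0.439) of the bins in the first stretch after the stop codon were listed, 0.317% (0.266 to 0.378) in the middle stretch and 0.207% (0.163 to 0.264) in the last, from which the final 100 bp before the transcript end are left out by the rule. The intervals of the first and last stretch did not overlap. Bins of the first stretch also held more CpGs, with a mean of 2.54, beside 2.06 and 2.00 in the middle and last stretch. Bins were classed by their midpoint, so those next to the stop codon can also hold bases before it. Among bins with at least 3 CpGs the rates were 0.611%, 0.499% and 0.314%, and among bins with 1 or 2 CpGs they were 0.302%, 0.333% and 0.235%. The share higher in Wt25 was 66.2% (100 of 151), 63.2% (79 of 125) and 50.8% (33 of 65) from the first to the last stretch, with intervals that overlapped. These splits were made with the lists in view and were not tested.

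**Figure D1:**
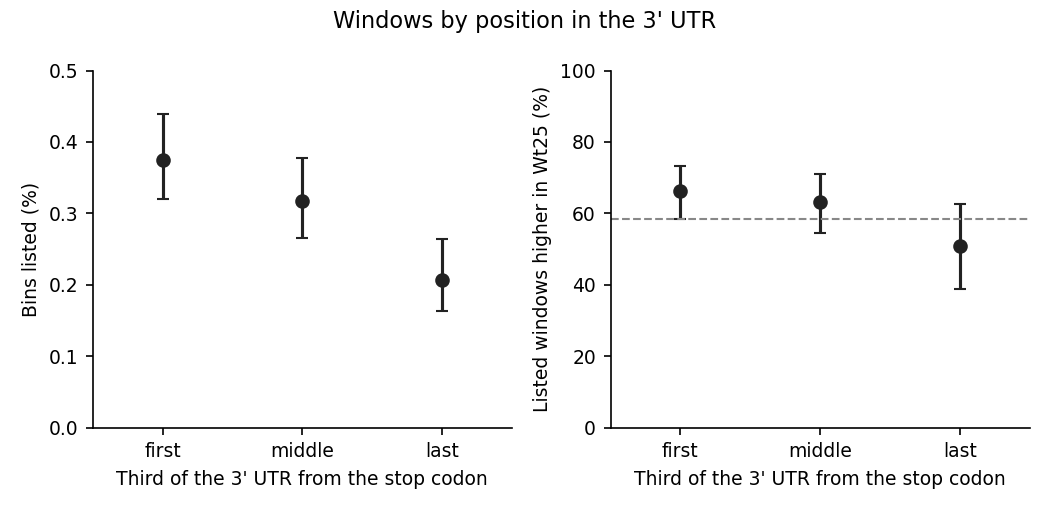
Left, percent of the 200 bp bins that were listed in either direction in the first, middle and last of 3 equal stretches of the 3′ UTR, counted from the stop codon. Right, percent of the listed windows that were higher in Wt25, with the share of all DhMRs (58.4%) as a dashed line. Points are shares and bars are 95% Wilson intervals. The listed share fell from 0.375% to 0.207% along the 3′ UTR.

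DhMRs close to the stop codon included those of *Setd1b*, a histone H3K4 methyltransferase, 95 bases past it with 11 CpGs, and *Slc37a4*, the glucose-6-phosphate transporter, 33 bases past it with 8 CpGs. Both were higher in Wt25. The 3′ UTR DhMR of *Brd2*, a bromodomain protein that reads acetylated histones, lay 74 bases past the stop codon with 6 CpGs, also higher in Wt25. Higher in AA10 were *Pabpn1*, the nuclear poly(A)-binding protein, at 45 bases with 2 CpGs, and *Map3k1*, a kinase upstream of the JNK pathway, at 199 bases with 7 CpGs. Far from the stop codon, *Dicer1*, which cuts microRNA precursors, held a DhMR higher in Wt25 at base 3692 of a 3′ UTR of 3851 bases. *Ptpn14*, a non-receptor tyrosine phosphatase, held one higher in AA10 at base 5446 of 6640. These positions are those of window midpoints, and CpGs were counted over the whole window. A window close to the stop codon can therefore also hold bases before it.

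In the 3′ UTR, the DhMRs higher in Wt25 had the higher mean GC content. GC content was 48.8% ± 7.5 (SD, n = 212 windows) in the DhMRs higher in Wt25 and 45% ± 7.7 (SD, n = 129) in those higher in AA10, beside a mean of 43.7% in all 3′ UTR bins. AATAAA or ATTAAA on the strand opposite to the gene was present in 11.8% (8.12 to 16.8) of the former and 23.3% (16.8 to 31.3) of the latter, and in 24.4% of all 3′ UTR bins. On the strand of the gene the shares were 16.5% and 23.3%, beside 20.0% of the bins. In the termination zone, mean GC content was 47.9% in the DhMRs higher in Wt25 and 47.6% in those higher in AA10. The signal on the opposite strand was in 23.2% and 26.4% of them. The differences in the 3′ UTR were seen in the lists and not tested. Windows are not independent samples, since several can lie in 1 run at 1 gene.

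In the termination zone, no distance from the end stood out by the share of bins listed. Of the 428, 42 lay before or at the annotated end and 386 past it. The listed share of bins was 0.328% in the last 100 bp before the end and 0.310%, 0.312%, 0.255% and 0.318% in successive steps of 250 bp past it, with intervals that all overlapped. The counts higher in Wt25 and AA10 were 26 and 16 before the end. In the successive steps past it they were 65 and 36, 68 and 33, 43 and 39, and 52 and 50. The directions were nearer to even in the steps past 500 bp, and the difference between steps was not tested. Further out, counts over 5 kb on either side of the farthest end of each of 21000 coding genes gave 961 DhMRs higher in Wt25 before the end and 920 past it. Those higher in AA10 numbered 554 before the end and 691 past it, or 446 and 575 without dense runs. In steps of 500 bp, the former ranged from 4.14 to 4.95 per 1000 ends before the end and from 3.33 to 5.48 past it, and the latter from 2.00 to 3.05 and from 2.76 to 3.90. The sides were not tested against each other.

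**Figure D2:**
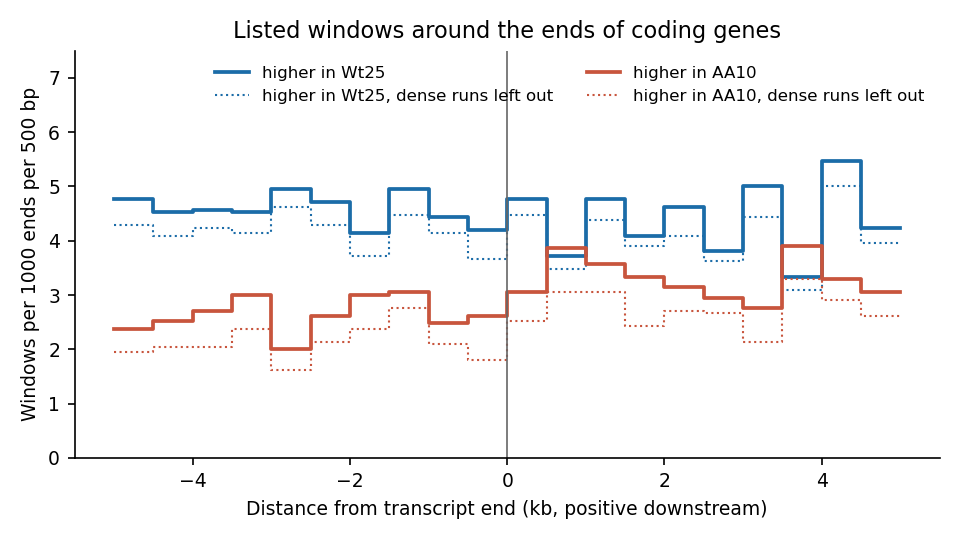
DhMRs per 1000 coding gene ends in steps of 500 bp, against distance from the transcript end in kb, positive downstream. Blue lines are higher in Wt25, red lines higher in AA10, and dotted lines leave out dense runs of DhMRs. AA10 lay between 2.00 and 3.05 before the end and between 2.76 and 3.90 past it, and Wt25 between 4.14 and 4.95 before it and between 3.33 and 5.48 past it.

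A polyadenylation signal anywhere upstream of the end of their own transcript was held by 120 DhMRs, 70 higher in Wt25 and 50 higher in AA10. In 56 of them, 37 and 19, the signal stopped 10 to 30 bases before the end. *Ccr10*, a chemokine receptor of skin-homing T cells, and *Zfp580*, a zinc finger gene, were among these and higher in Wt25, with signals 12 and 14 bases before the end. *Ccr10* had a second DhMR of the same direction next to it, with 8 CpGs. Higher in AA10 were *Apol11b*, an apolipoprotein L gene, with its signal 4 bases before the end, *Bnip5* at 11 bases, *Ghrhr*, the receptor of growth hormone-releasing hormone, at 14 bases and *Fkbp11*, a prolyl isomerase of the secretory pathway, at 16 bases. The *Fkbp11* DhMR also lay at the end of *Ccdc65* on the other strand, 1 of 21 DhMRs between converging ends, of which 8 were higher in Wt25 and 13 in AA10. Over all gene ends, a signal on the strand of the gene was in 23.2% of the DhMRs higher in Wt25 and 23.4% of those higher in AA10 (odds ratio 0.986, 0.691 to 1.41, exact adjusted *P* = 1), beside 25.0% of all gene end bins. Both motifs were searched as exact matches.

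CpG number went with listing at gene ends. Gene end DhMRs held a mean of 3.48 CpGs (SD 2.51, n = 769), beside 2.09 in all gene end bins, and their GC content was 47.6% beside 43.8%. Only 1 of 57190 gene end bins without a CpG was listed. The listed share was 0.282% with 1 or 2 CpGs, 0.488% with 3 or 4, 0.653% with 5 to 7 and 0.740% (0.55 to 0.996) with 8 or more. Introns with the same CpG numbers were listed at 0.185%, 0.379%, 0.535% and 0.469%. With bins that are at least 50% repeat-marked left out, gene ends were at 0.263%, 0.472%, 0.604% and 0.727%, and introns at 0.178%, 0.377%, 0.520% and 0.521%. The difference between gene ends and introns was not tested within CpG numbers.

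**Figure D3:**
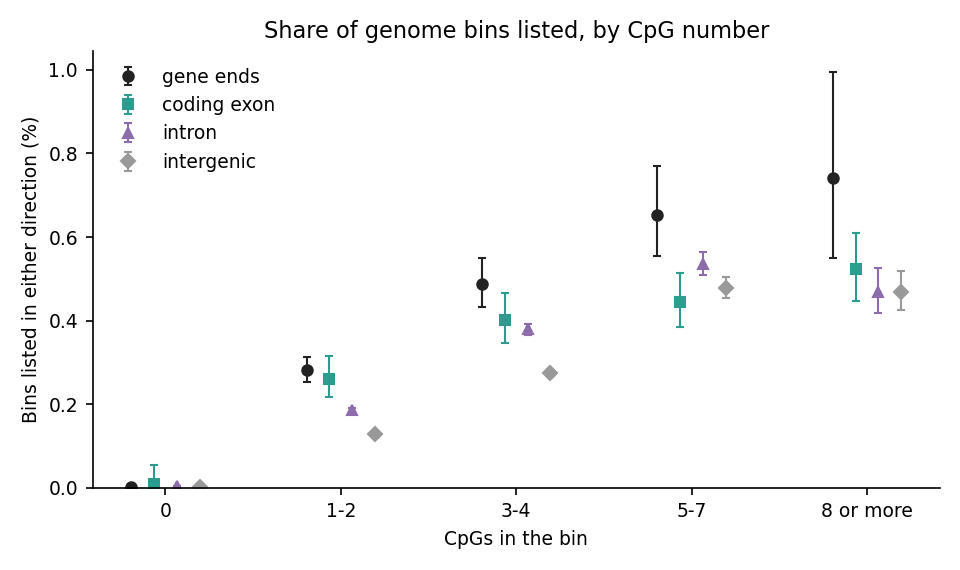
Percent of genome bins listed in either direction against the number of CpGs in the bin, for gene ends, coding exons, introns and intergenic bins. Points are shares and bars are 95% Wilson intervals. Gene ends rose from 0.282% with 1 or 2 CpGs to 0.740% with 8 or more, and bins without CpG were almost never listed.

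The share of DhMRs with at least 5 CpGs was 24% of 466 higher in Wt25 and 24% of 303 higher in AA10 (odds ratio 0.997, 0.702 to 1.42, exact adjusted *P* = 1). At 8 or more CpGs, 32 DhMRs were higher in Wt25 and 11 in AA10 (odds ratio 1.96, 0.942 to 4.37, exact adjusted *P* = 0.228). Against all other DhMRs, of which 20.8% had at least 5 CpGs, the odds ratio of gene ends was 1.21 (1.01 to 1.43, exact adjusted *P* = 0.120). It passed the threshold with at least 4 CpGs (1.35, exact adjusted *P* = 0.000514). The bins also differ, with at least 5 CpGs in 10.9% of gene end bins, 6.96% of intron bins and 4.66% of intergenic bins. Coding exon bins (42.6%) and promoter bins (36.1%) had more. The test did not account for the bins, so it cannot show an excess of CpGs particular to the DhMRs. Sequence marked as repeat in the genome was less frequent at gene ends. At least 50% of the bases were marked in 15.3% of gene end DhMRs and 27% of the others (odds ratio 0.490, 0.399 to 0.599, exact adjusted *P* = 5.66e-13). The bins themselves differ in the same way, with 12.7% of gene end bins, 21.6% of introns and 37.7% of intergenic bins at least 50% marked. By direction the shares were 14.6% in Wt25 and 16.5% in AA10 (odds ratio 0.865, 0.571 to 1.32, exact adjusted *P* = 0.713).

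The CpG-densest gene ends were found in genes of varied roles, several of them developmental. Higher in Wt25 were the 3′ UTRs of *Sema6b*, a transmembrane semaphorin of axon guidance, with 19 CpGs, of *Slc9a3*, a sodium-hydrogen exchanger, with 14, and of *Zic4*, a zinc finger factor of the developing cerebellum, with 14. The termination zones of *Eomes*, a T-box factor of mesendoderm and trophoblast, and of *Rln3*, a relaxin neuropeptide, held 15 and 12. Higher in AA10 were the 3′ UTRs of *Pou3f4*, a POU factor of neural tube and inner ear, with 17 CpGs, and of *Dnajb2*, a co-chaperone, and *Gas2l1*, which links actin to microtubules, with 11 each. The CpGs of *Pou3f4* and *Gas2l1* lay in runs of alternating C and G next to CA repeats, as its sequence above shows for *Pou3f4*, and 56% of the bases of each window were repeat-marked. The termination zones of *Plekhg6*, with 20 CpGs, and *Hoxa3*, a homeobox gene, with 15, both lie on chromosome 6, where 26 of 33 gene end DhMRs were higher in AA10.

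The gene ends with the most DhMRs were taken in equal number from each direction. Of these 16, 10 lay in dense runs of DhMRs of 1 direction. Higher in AA10, *Paip1*, which binds poly(A)-binding protein and promotes translation, held 10 DhMRs, 7 along its 3′ UTR of 3242 bases and 3 past its end, and its gene held 57 further DhMRs, all higher in AA10. *Hmgcs1*, the cytosolic HMG-CoA synthase of cholesterol synthesis, and *Ccl28*, a mucosal chemokine, held 5 each and lie near it on chromosome 13. *Ewsr1*, an RNA-binding protein, with 5, and *Gas2l1*, with 4, are neighbours on chromosome 11, and their DhMRs lay at more than 1 annotated transcript end. *Taok3*, a kinase of the MAPK pathway, *Uso1*, a vesicle tether between the endoplasmic reticulum and the Golgi, and *Bnip5* held 4 each.

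Higher in Wt25, the predicted gene *Gm8978* held 7 DhMRs across its 3′ UTR and termination zone, with 31 others in its body, all of the same direction. *Gm15446*, *Ptp4a2*, a tyrosine phosphatase of the PRL group, and *Sae1*, a subunit of the SUMO-activating enzyme, held 4 each, and the body of *Sae1* held 77 others, all higher in Wt25. *Cand1*, which exchanges substrate receptors of cullin ligases, *Iqgap2*, a scaffold of the cytoskeleton, *Slc35g1*, a solute carrier, and *Nusap1*, a spindle protein, held 3 each. Runs of at least 20 consecutive DhMRs of 1 direction with gaps of at most 10000 bp held 90 gene end DhMRs, 32 higher in Wt25 and 58 in AA10, among them those of *Paip1*, *Hmgcs1*, *Ccl28*, *Ewsr1*, *Gas2l1*, *Taok3*, *Gm8978*, *Sae1*, *Cand1* and *Iqgap2*. Those of *Bnip5*, *Uso1*, *Gm15446*, *Ptp4a2*, *Slc35g1* and *Nusap1* lay outside them. Outside such runs, 63.9% of 679 gene end DhMRs were higher in Wt25, beside 60.9% of all DhMRs outside them.

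**Figure D4:**
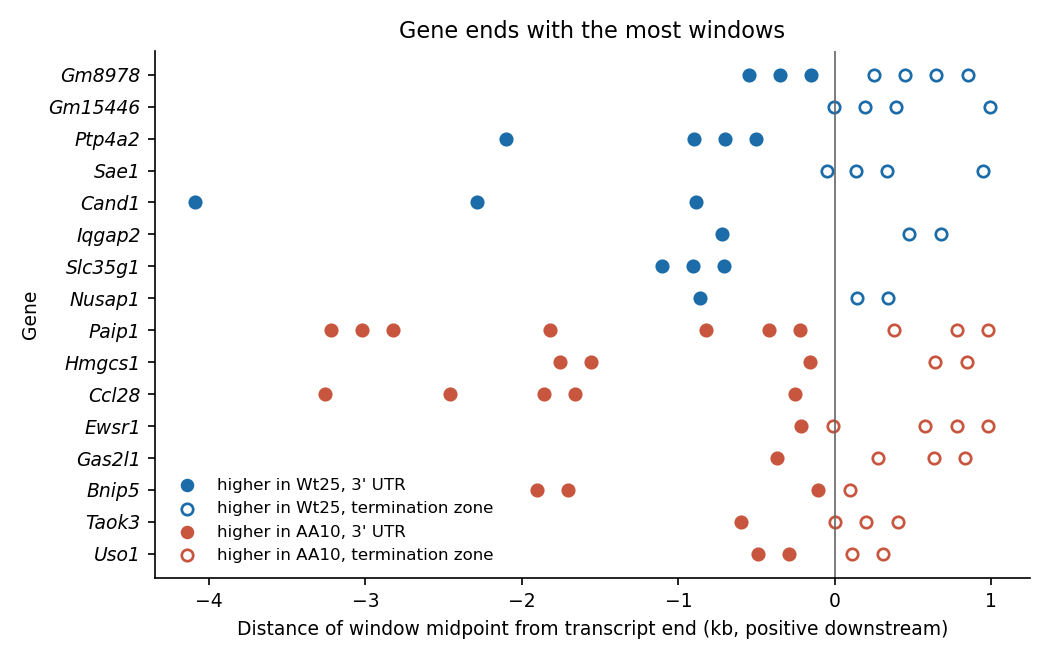
Each DhMR at the 8 gene ends with the most DhMRs in each direction, placed by the distance of its midpoint from the nearest end of a transcript of that gene, in kb and positive downstream. Filled points lie in the 3′ UTR and open points in the termination zone. *Paip1* has 10 DhMRs higher in AA10 from 20 bases past the stop codon to 978 bp past its end, and *Gm8978* has 7 higher in Wt25.

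At 4 gene ends DhMRs of both directions occurred. *Zic4* had a DhMR higher in AA10 166 bases past the stop codon, with 6 CpGs, and one higher in Wt25 at 566 bases, with 14 CpGs. *Kdm5a*, a histone H3K4 demethylase, had one higher in Wt25 at base 4308 of its 3′ UTR of 5381 bases and one higher in AA10 at base 4908. In *Reep3*, which clears endoplasmic reticulum from mitotic chromosomes, they lay at bases 67 (Wt25) and 3267 (AA10) of 4579. *Msl1*, a scaffold of the MSL histone acetyltransferase complex, had 2 DhMRs higher in Wt25 past the end of a shorter transcript and 1 higher in AA10 in the longer 3′ UTR.

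Genes were also grouped by symbol patterns into 15 lists, and the counts below are to be read beside 2.41% of all curated genes with a gene end DhMR and 0.304% of all gene end bins listed. Among 370 developmental transcription factors, 19 (5.14%) had a gene end DhMR, at 0.429% of their gene end bins (0.278 to 0.662). DhMRs at 13 of them were higher in Wt25 and at 7 in AA10, with *Zic4* in both. In Wt25 they included *Foxo3*, a forkhead factor of stress and survival, at base 2430 of its 3′ UTR with 7 CpGs, *Nfia*, a factor of glial differentiation, with 7 CpGs, *Dlx1*, a homeobox gene of forebrain interneurons, 520 bp past its end with 6 CpGs, and *Foxk1* with 4. In AA10 they included *Pou3f4*, *Hoxa3*, *Foxj1*, the factor of motile cilia, 3 bp past its end, *Klf15*, a Krüppel-like factor of metabolism, and *Tcf19*. The *Tcf19* window was repeat-marked throughout and lies next to *Pou5f1*, the pluripotency factor, which is the gene the deposited list gives for it.

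Developmental signalling genes had gene end DhMRs in 7 of 214 (3.27%), at 0.235% of their bins, 3 higher in Wt25 and 4 in AA10. *Fgf8*, a morphogen of the gastrula and limb, was higher in Wt25 990 bp past its end, as were *Wnt10a*, a Wnt ligand, at 725 bp and *Tgfbr2*, the type II TGF-beta receptor, at 594 bp. *Nog*, the BMP antagonist noggin, was higher in AA10 537 bp past its end with 5 CpGs. *Smo*, the transducer of Hedgehog signals, and *Ctnnbip1*, an inhibitor of beta-catenin binding, were higher in AA10 in the 3′ UTR.

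Chromatin genes had gene end DhMRs in 11 of 218 (5.05%), at 0.451% of their bins (0.264 to 0.769). At 9 genes they were higher in Wt25, among them *Setd1b* with 2 DhMRs, *Brd2*, *Arid3a*, an AT-rich DNA binder, *Sirt1*, a deacetylase, and *Kat2b*, an acetyltransferase. At 3 they were higher in AA10, *Kat6b* and *Brd1*, parts of related acetyltransferase complexes, and *Kdm5a*, which counts in both. RNA processing and translation genes had DhMRs in 16 of 348 (4.60%), at 0.382% of their bins, 9 higher in Wt25 and 7 in AA10. *Dicer1*, *Rbfox2* and *Celf5*, a pair of splicing regulators, *Rbm20*, a splicing factor of the heart, *Rbm3*, a cold-induced RNA binder, and *Eif2b1*, a subunit of an initiation factor, were higher in Wt25. *Tnrc6a*, the Argonaute partner GW182, had 2 DhMRs higher in AA10, and *Cpsf7*, a subunit of cleavage factor I, *Pabpn1*, *Ddx19b*, a helicase of mRNA export, *Rbm24* and *Eif4e3* had 1 each.

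Kinases and phosphatases had DhMRs in 18 of 462 genes (3.90%), at 0.364% of their bins, 12 higher in Wt25 and 6 in AA10. In Wt25 they included *Ptp4a2*, *Tyro3*, a TAM receptor kinase, and *Ptprb*, the endothelial receptor phosphatase, with 2 each, *Pik3cb*, a PI3-kinase catalytic subunit, *Prkag2*, a subunit of AMPK, and *Cdk1*, the mitotic kinase, 445 bp past its end with 6 CpGs. In AA10 they included *Map3k1*, *Ptpn14*, *Wnk4*, a regulator of renal salt transport, *Ptprd*, a synaptic receptor phosphatase, and *Ppp1r9a*, a regulatory subunit of protein phosphatase 1. Ubiquitin genes had DhMRs in 18 of 588 (3.06%), at 0.286% of their bins, 9 in each direction. *Mdm2*, the ligase of p53, was higher in Wt25 with 8 CpGs in its 3′ UTR, and *Fbxo42*, *Trim25* and *Ube4b* were higher in Wt25 as well. *Trim24* and *Rnf168*, a ligase of the DNA damage response, had 2 each higher in AA10, with *Usp48* and *Ube2h*.

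Among genes of transport and metabolism, transporters had DhMRs in 16 of 545 (2.94%), at 0.295% of their bins, 12 higher in Wt25 and 4 in AA10. *Slc35g1*, *Slc37a4*, *Slc9a3* and *Slc4a3*, an anion exchanger, were higher in Wt25, and *Slc7a5*, the large neutral amino acid transporter, and *Slc38a2*, which takes up small neutral amino acids, in AA10. Metabolic enzymes had DhMRs in 14 of 490 genes (2.86%), at 0.470% of their bins (0.304 to 0.725), 9 in Wt25 and 5 in AA10. Of their 20 DhMRs, the 5 of *Hmgcs1* lie in a dense run. *Shmt2*, the mitochondrial serine hydroxymethyltransferase, held 11 CpGs in a termination DhMR higher in Wt25, and *Sdhc*, a subunit of succinate dehydrogenase, held 6 in its 3′ UTR. *Hmgcs1*, *Pdk4*, a kinase of pyruvate dehydrogenase, and *Ndufab1* and *Ndufb2*, both of respiratory complex I, were higher in AA10. Ion channels had DhMRs in 3 of 215 genes (1.40%), at 0.126% of their bins, *Kcnab3* with 2 in Wt25 and *Trpv2* and *Kcnk7* in AA10.

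Receptors, a list that includes the olfactory and vomeronasal genes, had DhMRs in 14 of 1901 genes (0.736%), at 0.127% of their bins (0.0793 to 0.203). *Ccr10*, *F2r*, the thrombin receptor, *C5ar1*, a complement receptor, and *Adgrf5* were higher in Wt25. *Cxcr4*, the receptor of CXCL12, *Gpr161*, a ciliary receptor of Hedgehog control, and *Sstr3*, a somatostatin receptor, were higher in AA10. Immune and secreted genes had DhMRs in 12 of 701 (1.71%), at 0.262% of their bins, 9 in Wt25, such as *Il11* and *Apod*, and 3 in AA10, among them *Ccl28* and *Apol11b*. Adhesion and matrix genes had them in 6 of 366 (1.64%), at 0.179% of their bins, 3 in each direction, with *Cdh4* and *Col1a1*, the alpha chain of type I collagen, in Wt25 and *Cdh3* and *Sdc4* in AA10. Axon guidance and synapse genes had them in 4 of 164 (2.44%), at 0.154% of their bins, *Sema6b*, *Stx8* and *Syt12* in Wt25 and *Syt11* in AA10. Zinc finger genes had them in 16 of 500 (3.20%), at 0.252% of their bins, 10 in Wt25 and 6 in AA10, with *Zfp131*, *Zfp58* and *Zfp874b* of AA10 inside dense runs. Small RNA genes had them in 10 of 1362 (0.734%), at 0.201% of their bins, where the DhMR lies within 1000 bp of the hairpin. *Mir7b*, *Mir195b* and *Mir574* were among the 6 higher in Wt25, and *Mir3072* and *Mir763* among the 4 higher in AA10.

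The direction at a gene end mostly matched that of other DhMRs in the same gene. For 379 of the 769 there was no DhMR elsewhere in the gene. For 366 the gene held other DhMRs of 1 direction only, and in 326 of these (89.1%) it was the direction of the gene end. Without dense runs the share was 85.9% of 284. The nearest DhMR of any kind had the same direction for 81.8% of gene end DhMRs, and this share fell with distance, from 97.9% within 1000 bp to 87.4% up to 10000 bp, 66.7% up to 100000 bp and 58.3% beyond. *Cdh4* is 1 example, with 14 DhMRs elsewhere in the gene, all higher in Wt25 like its 3′ UTR. *Ptprd* is a counterexample, with 7 higher in Wt25 elsewhere and a 3′ UTR DhMR higher in AA10. The shares of matching direction count windows, so a gene with several gene end DhMRs enters more than once. Of all listed windows, 58.4% were higher in Wt25, and direction varied by chromosome. Matching shares were not computed for the other DhMRs, so the match cannot be read as particular to gene ends.

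The gene that the deposited list gives for a DhMR was the gene whose end it lies at in 366 of 734 cases (49.9%, 46.3 to 53.5), matched by symbol or synonym. Several of the gene ends described here stand under a neighbour in the list. The *Nfia* 3′ UTR is listed under *Tm2d1*, the *Sema6b* 3′ UTR under *Lrg1*, the *Cdh4* 3′ UTR under *Taf4* and the *Paip1* DhMRs under *4833420G17Rik*. Among genes that match are *Eomes*, *Pou3f4*, *Dicer1* and *Hmgcs1*.

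Direction varied by chromosome. Most chromosomes had more gene end DhMRs higher in Wt25 than in AA10. The share was largest on chromosomes 2 (44 higher in Wt25 and 7 in AA10), 7 (47 and 10), 9 (26 and 7), 16 (16 and 3) and 19 (22 and 5). Chromosomes 6 (7 and 26) and 13 (15 and 40) had most higher in AA10. Among all DhMRs of these chromosomes, the share higher in Wt25 was 73.9% on chromosome 2 (86.3% at gene ends), 75.3% on 7 (82.5%), 68.2% on 9 (78.8%), 67.8% on 16 (84.2%) and 81.4% on 19 (81.5%). It was 12% on chromosome 6 (21.2%) and 46.1% on chromosome 13 (27.3%). The gap between gene ends and all DhMRs was not tested. On chromosome 13, 40 of the 55 gene end DhMRs lay in dense runs. Chromosome 11 held the most gene end DhMRs, 38 and 40, with 48.7% higher in Wt25 beside 62.1% of all its DhMRs.

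**Figure D5:**
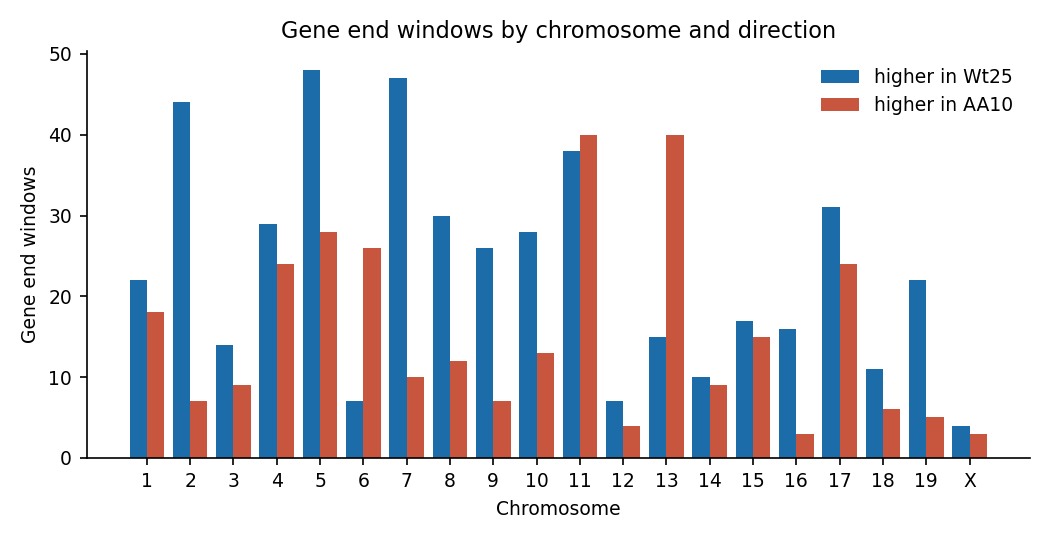
Number of gene end DhMRs on each chromosome, higher in Wt25 (blue) and higher in AA10 (red). Most chromosomes hold more DhMRs higher in Wt25, among them 2, 7 and 19, and chromosomes 6 and 13 hold mostly DhMRs higher in AA10.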

How the data were processed

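The 5hmC-DIP libraries, 3 of each line, were aligned by the authors uniquely to GRCm38 with STAR and stripped of duplicates with Picard. They were compared with MEDIPS in bins of 200 bp. The paper gives the MEDIPS cut-off as *P* < 0.05 with a fold change of at least 1. It mentions no adjustment of this *P*-value for the number of bins, so single DhMRs may be false calls. The paper reports that bins overlapping IgG-DIP peaks, simple repeats or low complexity sequence were removed. The *Pou3f4* and *Gas2l1* windows in the lists still hold repeats of this kind, so how far the filter applies to the lists is unknown. The deposited values are positions only, 1 list for each direction, with the direction taken from the name of the list. Tool versions are not given in the sources used here. Sequences and transcripts came from GRCm38.p6 and its curated RefSeq set. A DhMR took the class of its midpoint, in the order promoter, termination zone, coding exon, 3′ UTR, and belonged to the gene with the nearest transcript end. Two-sided Fisher's exact tests were adjusted over 12 tests and called at an adjusted *P*-value under 0.05. The classes of positions, the joining of windows, the dense runs and the tests were checked on simulated data. Of these checks, 23 of 23 gave the known answer. The rates of bins, distances, polyadenylation signals and gene lists were not checked in this way. The alternatives were joined windows, 1 count per gene end, other transcripts, zones and thresholds, and leaving out chromosome 6 or dense runs. Members, lists and tests were chosen with earlier results of these data known. Some symbol patterns were narrowed after wrong matches had been seen. Named are, for each direction, the 8 gene ends with most DhMRs, the 3 CpG-densest windows of each zone, up to 6 genes of each list and the 6 nearest polyadenylation signals, gene ends of both directions, and few others. Unnamed gene models were mostly counted only, and some genes the rule takes are not reported here. RNA-seq and H3K27ac data were not used here, so the cell type was not checked against its markers. The tests ran in scipy 1.17.1 under Python 3.11.15, with numpy 2.4.6, and the plots came from matplotlib 3.10.9.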

Additional observations from a re-analysis of the deposited data

How the results depend on the processing

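The lists hold no values for single libraries, so no library could be left out and no stricter threshold set. No paired analysis was possible because the lists pool the replicates. Windows of 1 run are not independent, which makes *P*-values too small. Curated transcripts, planned as an alternative, became the main set because they give the number of windows the rule names, and predicted transcripts were added as an alternative after the data had been seen. Of 88 alternatives over the 12 tests, 70 kept direction and call. Some of these could hardly differ from the main setting. An overlap of at least 100 bp in place of the midpoint took nearly the same windows, and against promoters it gave the same odds ratio, 1.37. The only called result that lost its call was gene ends against promoters, with odds ratios of 1.24 without chromosome 6, 1.29 with protein-coding transcripts and 1.20 with predicted transcripts. The only one that gained a call was the share of CpG-rich windows against other DhMRs, at 1.35 with at least 4 CpGs. Results that were not called crossed an odds ratio of 1 in 14 cases, with no call on either side. The termination zone against other DhMRs went to 0.942 with protein-coding transcripts, and the 3′ UTR against the termination zone to 0.852 with a zone of 500 bp. Gene ends against introns went to 0.949 without chromosome 6 and 0.970 with protein-coding transcripts. CpG-rich windows by direction went to 1.10 with touching windows joined and with 1 count per gene end, 1.04 without dense runs, 1.08 with at least 4 CpGs, 1.96 with at least 8 and 1.07 with predicted transcripts. Polyadenylation signals by direction went to 1.07 with touching windows joined, 1.09 with 1 count per gene end, 1.03 without dense runs and 1.07 with AATAAA only. The cause was not tested in any of these.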
